A study of Mus musculus with 6 samples.

Results

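Blnk and Pik3ap1 encode adaptor proteins of B cell receptor signalling, and they are described here with 7 further genes of that pathway in luminal epithelial cells of the mouse mammary gland. The genes are Blnk, Pik3ap1, Syk, Plcg2, Lyn, Cd79a, Cd79b, Ighm and Ighd. They were found by their symbols in the authors' deposited table, which holds 16701 genes, and 8 of the 9 were there; Cd79a was not analysed here. Blnk and Pik3ap1 were chosen for the very differences described below, and the other members because they help to tell B cell RNA from epithelial expression, so the members were selected on the fold changes and p-values of this comparison, and these values are a description of the members and carry no new test.

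Polyadenylated RNA was sequenced from luminal cells of 3 Ocln knockout libraries (Ocln-/-) and 3 control libraries of wild-type genotype, all from mice 7 weeks old. Ocln encodes occludin, a membrane protein of tight junctions. The labels do not say how the knockout was made, on which strain background, how luminal cells were isolated or whether each library is 1 animal, so the p-values measure the spread between libraries, which may be partly technical. The table used here gives for each gene a mean level over the 6 libraries in normalized counts, the log2 fold change of knockout over control with its standard error (SE), and DESeq2 p-values. No values per library were used here, and the depth per library is unknown.

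In B cells the receptor consists of membrane immunoglobulin, made from the heavy chain genes Ighm or Ighd, with the signalling chains CD79A and CD79B. The kinases LYN and SYK phosphorylate these chains and the adaptors. The adaptor BLNK then gathers phospholipase C gamma 2, encoded by Plcg2, and other enzymes, while BCAP, encoded by Pik3ap1, recruits the lipid kinase PI3K. BCAP also acts in natural killer cells and in macrophages, and in macrophages it couples Toll-like receptors to PI3K. LYN, SYK and phospholipase C gamma 2 are used outside B cells too. In the mammary gland LYN has been studied as a kinase downstream of the KIT receptor of luminal progenitor cells.

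Blnk and Pik3ap1 lie near each other on chromosome 19, and their upstream sequences are shown because the genes share both this location and the direction of their difference. Blnk spans chr19:40928927-40994221 and Pik3ap1 chr19:41272541-41385102 on GRCm38.p6, both on the minus strand, with 278 kb between them. The sequences below come from RefSeq (build GRCm38.p6), 5′ to 3′ along the minus strand, with matches to a searched motif in capitals. For Blnk, 30 bases are shown around each match, at chr19:40994405-40994434, chr19:40994364-40994393 and chr19:40994333-40994362. For Pik3ap1, the 250 bases before the start site are shown, at chr19:41385103-41385352.
Blnk, ETS-family core: ttgggacaaacAGGAAGTagtgctcagtca
Blnk, E-box: aacctggcaacaCACCTGatcataaaagag
Blnk, octamer: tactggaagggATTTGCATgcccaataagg
Pik3ap1: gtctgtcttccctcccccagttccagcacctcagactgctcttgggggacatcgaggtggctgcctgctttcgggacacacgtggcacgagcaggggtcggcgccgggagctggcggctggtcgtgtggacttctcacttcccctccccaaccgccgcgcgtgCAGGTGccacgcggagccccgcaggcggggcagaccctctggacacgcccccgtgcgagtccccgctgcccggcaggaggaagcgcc

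The 250 bases before each RefSeq start site were searched on both strands for 9 motifs, and the shares given are of 32851 such windows of mouse genes. The ETS-family core AGGAAGT matched once in Blnk and not in Pik3ap1, and 7.69 percent of all windows hold it. The E-box CACCTG matched once in each gene, on the other strand in Pik3ap1, and stands in 17.2 percent of windows. The octamer ATGCAAAT, a motif known from immunoglobulin promoters, matched once in Blnk, read there as ATTTGCAT on the gene's own strand, and not in Pik3ap1, and 1.6 percent of windows hold it. EBF1 (CCCNNGGG, in 11.8 percent of windows), RUNX (TGTGGT, 14 percent), NF-kB (GGNNTTNCC, 13.5 percent), STAT (TTCNNNGAA, 7.02 percent), AP-1 (TGANTCA, 6.75 percent) and TATA box (TATAAA, 12.4 percent) letters matched in neither window. No match overlapped another. The windows differ in base composition, with 71.2 percent G and C in Pik3ap1 and 47.6 percent in Blnk, against a median of 52.4 percent over all windows. GENCODE M21 places the 5′ end of Blnk 314 bases further upstream, so the Blnk window lies inside its gene there. A match describes letters in these windows only.

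Both adaptor genes were higher in the knockout. Blnk had a mean level of 286.8 normalized counts and a log2 fold change of 2.11 ± 0.33 (SE, n = 3 libraries each) per the authors' deposited table, which is a 4.31-fold rise with a 95 percent interval of 2.77 to 6.72. Pik3ap1 had a mean level of 610.1 and a log2 fold change of 1.73 ± 0.35 per the authors' deposited table, a 3.32-fold rise with an interval of 2.06 to 5.37. The DESeq2 adjusted p was 1.7e-07 for Blnk and 0.000341 for Pik3ap1 in the authors' deposited table, where they rank 10 and 43 by p. These are the only members past an adjusted p of 0.05, 2 of 8. Of all 16701 genes, 1.08 percent passed in either direction, and 0.808 percent were higher and 0.275 percent lower. The authors' own calls, each with an unadjusted p below 0.05 and an absolute log2 fold change no smaller than 1.01, mark 1.8 percent of genes as Up and 0.988 percent as Down in the authors' deposited table. By size among the 135 genes that were higher with an adjusted p under 0.05, Blnk has the log2 fold change of rank 17 and Pik3ap1 that of rank 29. Genes that did not pass are left out of this ranking, and some of them have larger log2 fold changes. The intervals are not adjusted for the number of genes.

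Neither the kinase genes nor the phospholipase gene passed the test. Lyn, the kinase gene with the higher level, had a log2 fold change of 0.40 ± 0.19 (SE) at a mean level of 1822 and did not pass (DESeq2 adjusted p = 0.502, unadjusted p = 0.0375) per the authors' deposited table. Syk had the same rounded log2 fold change as Pik3ap1, 1.73, but with an SE of 0.96, and did not pass (DESeq2 adjusted p = 0.616) per the authors' deposited table. Its 95 percent interval runs from 0.898-fold to 12.3-fold at a mean level of 168.9. Plcg2, which encodes the phospholipase that BLNK binds, had a log2 fold change of -0.29 ± 0.25 at a mean level of 2053 (DESeq2 adjusted p = 0.839) per the authors' deposited table, the only negative value among the 8. Its interval, from 0.585-fold to 1.15-fold, lies wholly below those of both adaptors; the difference itself was not tested, since the covariance between genes of the same libraries is not in the table.

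The receptor's own genes had high but imprecise fold changes at low levels. Ighd, the constant region gene of IgD, had the largest point estimate of all members, 2.58 ± 1.32 (SE), at a mean level of 68.01, with an unadjusted DESeq2 p of 0.0513 and an adjusted p of 0.553 per the authors' deposited table. Ighm, the constant region gene of IgM, stood at 1.58 ± 1.15 with a mean level of 195.1 (DESeq2 adjusted p = 0.769) per the authors' deposited table. Cd79b stood at 1.28 ± 1.01 with a mean level of 17.82 (DESeq2 adjusted p = 0.8) per the authors' deposited table. The 95 percent intervals were 0.99 to 35.9-fold for Ighd, 0.627 to 14.3-fold for Ighm and 0.613 to 9.6-fold for Cd79b, so each includes no change and each includes the fold changes of Blnk and Pik3ap1. IgM and IgD heavy chains are spliced from 1 primary transcript, so Ighm and Ighd are not separate evidence. In bulk RNA, more cells of a type and more RNA per cell cannot be told apart.

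**Figure D1:**
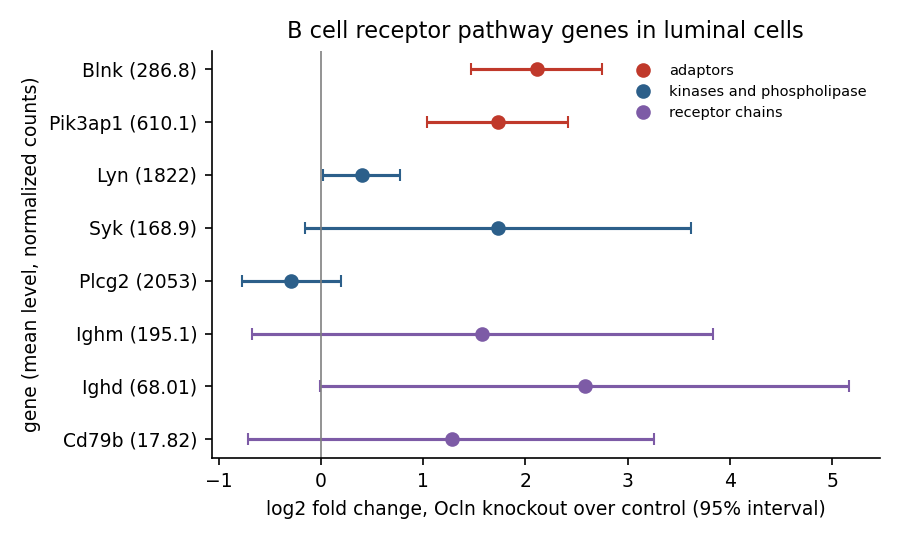
Log2 fold change of Ocln knockout over control (x axis) for the 8 members (y axis, with the mean level in normalized counts), from the authors' deposited table; bars are 95 percent intervals of 1.96 SE. The adaptors Blnk and Pik3ap1, at 2.11 and 1.73, are the members whose intervals lie farthest above 0, while those of Syk, Ighm, Ighd, Cd79b and Plcg2 cross 0.

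The members also differed in precision. The SE of each member was set beside those of genes with a mean level between 0.8 and 1.25 times its own. Ighm had an SE of 1.15 per the authors' deposited table against a median of 0.24 among 1029 such genes, and 99.6 percent of these had a smaller one. For Syk, the SE of 0.96 per the authors' deposited table stood against a median of 0.26, and 99.3 percent of 955 genes had a smaller one. Ighd, at 1.32 against 0.35, and Cd79b, at 1.01 against 0.59, were above 99.6 and 98.8 percent of genes of similar level per the authors' deposited table. Blnk (0.33 against 0.22, above 91.8 percent) and Pik3ap1 (0.35 against 0.19, above 97.8 percent) were also less precise than most genes of their level per the authors' deposited table, though by less. Lyn (0.19 against 0.17, above 75 percent) and Plcg2 (0.25 against 0.17, above 92.9 percent) had the smallest SEs of the members per the authors' deposited table.

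At a given level, the SE of a gene grows with the spread between libraries of 1 genotype. Of the 11666 genes whose mean level reached 100, 116 (0.994 percent) had an SE of at least 0.7 per the authors' deposited table. Ighm and Syk are among these, and Blnk and Pik3ap1 are not. The limits were chosen after the values were seen. Blnk and Pik3ap1 were also selected on small p-values, which at a given fold change need a small SE. That they lie below the SE limit is therefore no separate observation. Of the 116, 111 are in none of the B cell receptor, B and plasma cell, T and NK cell and myeloid lists used here. These lists are not complete, and leukocyte genes such as Ccr7, Ccl22 and Lsp1 are among the 111. The other 5 are Ighm, Syk, Ptprc, Coro1a and Laptm5. By list, they are 3 of the 32 B cell receptor genes, 1 of the 4 B and plasma cell markers, 3 of the 13 myeloid markers and 0 of the 1 T and NK cell marker that reach this level. The 3 of the myeloid list, Ptprc, Coro1a and Laptm5, are not restricted to myeloid cells, and Ptprc is in the B cell receptor list too. The other myeloid markers at this level had SEs below 0.7, such as 0.29 for Lyz2 and 0.25 for Csf1r, per the authors' deposited table. Which libraries carried the higher levels cannot be seen without values per library.

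**Figure D2:**
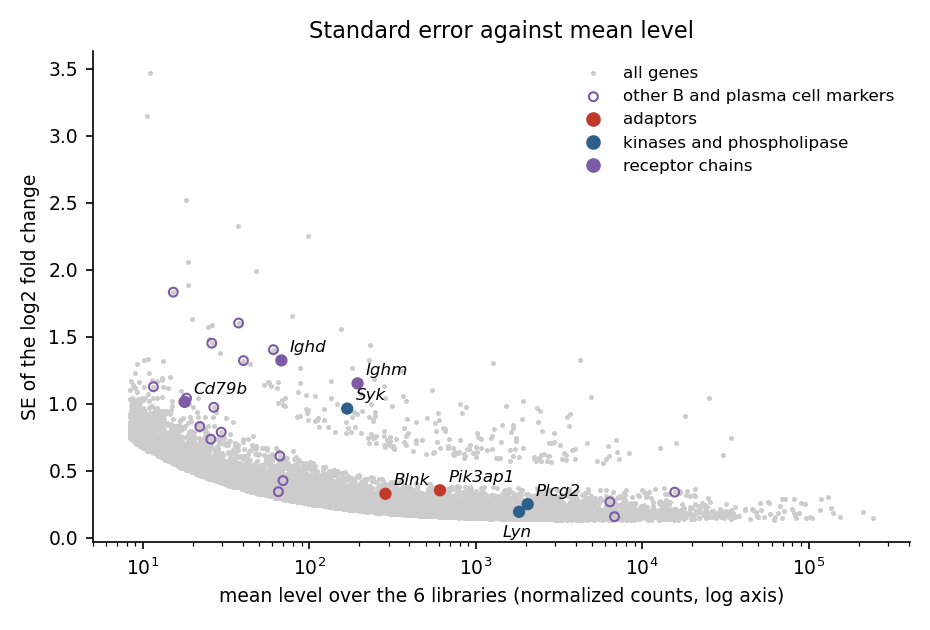
SE of the log2 fold change (y axis) against the mean level in normalized counts (x axis, log scale) for all 16701 genes in grey, the members in colour and the other B and plasma cell markers as open circles, from the authors' deposited table. Ighm, Ighd and Syk stand in a sparse band above the main cloud, with SEs of 1.15, 1.32 and 0.96, while Blnk and Pik3ap1 stand in the upper part of the main cloud at 0.33 and 0.35. Blnk and Pik3ap1 were selected on p-values that depend on the SE.

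Levels in each genotype were derived from the mean level and the fold change, taking the mean as the average of equal groups, and divided by the length of the longest protein-coding or immunoglobulin transcript in GENCODE M21. They approximate group means and have no spread per library. Blnk had an implied level of 222 normalized counts per kb in the knockout and 51.5 in control. Pik3ap1 had 209 per kb in the knockout and 63 in control. With these lengths the adaptors stood near each other in both genotypes, and between the abundant enzymes and the receptor chains in the knockout. That order depends on the transcript chosen. With the longest transcript of any type, Blnk had 103 per kb in the knockout and 23.8 in control, below both Pik3ap1 and Ighm, whose levels stay as given here. Not divided by length, Blnk had 466 normalized counts in the knockout and 108 in control, and Pik3ap1 938 in the knockout and 282 in control.

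Lyn and Plcg2 were the most abundant members per length in both genotypes. Lyn had an implied 598 normalized counts per kb in the knockout and 454 in control, and Plcg2 had 430 per kb in the knockout and 525 in control. Ighm had 172 per kb in the knockout and 57.5 in control, and Ighd 64.5 per kb in the knockout and 10.8 in control. Syk had 48.4 per kb in the knockout and 14.6 in control. Cd79b was lowest, with 17.6 per kb in the knockout and 7.27 in control. Without values per library, it cannot be said which neighbours in this order differ beyond their spread.

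As a difference of implied levels, Blnk was higher in the knockout by 171 normalized counts per kb (95 percent interval 128 to 203, from the interval of the fold change with the mean level held fixed). Pik3ap1 was higher by 146 per kb (94.3 to 187). The same difference was 115 per kb for Ighm (-52.6 to 200), 53.7 for Ighd (-0.375 to 71.2), 33.8 for Syk (-3.38 to 53.5) and 10.4 for Cd79b (-5.97 to 20.2). The implied difference of Blnk was 16.4 times that of Cd79b, 3.18 times that of Ighd and 1.49 times that of Ighm, and that of Pik3ap1 was 14.1, 2.73 and 1.28 times as large. The interval of Ighm spans the differences of both adaptors, so an order between Ighm and the adaptors is not shown. That of Cd79b lies below both adaptor intervals. With the longest transcript of any type, which for Blnk is one with a retained intron, the difference of Blnk is 78.9 per kb, below that of Ighm.

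**Figure D3:**
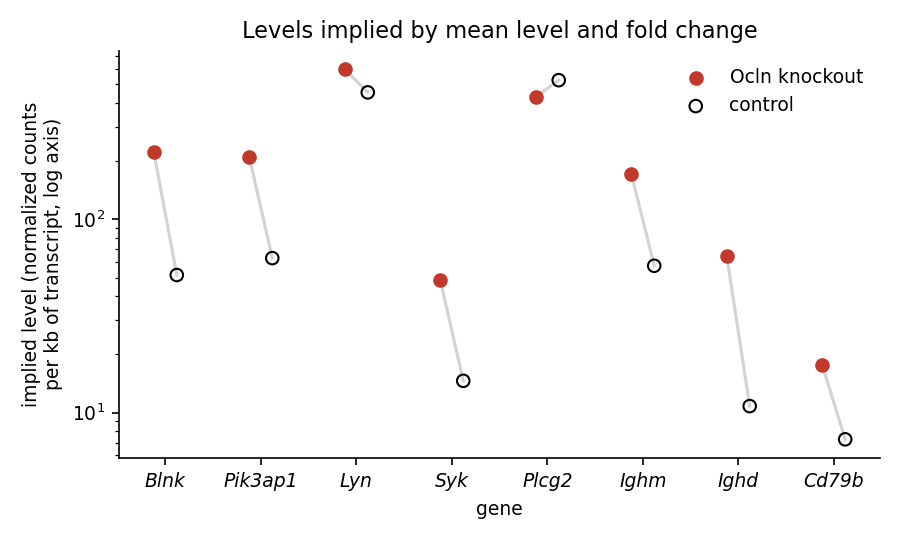
Implied level in normalized counts per kb of transcript (y axis, log scale) for each member (x axis), with Ocln knockout as filled and control as open circles. Blnk and Pik3ap1 are at 222 and 209 in the knockout and 51.5 and 63 in control, and Cd79b is lowest in both genotypes; the circles have no error because the table holds no values per library.

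Genes that mark B and plasma cells were mostly higher in point estimate, and none passed. Of 36 markers, 20 were in the table, 17 with a positive log2 fold change, a sign that 48.8 percent of all genes had, and their median was 1.59 against -0.01 over all genes. The table starts at a mean level of 8.35, and 3 of the 20, Iglc2, Cxcr5 and Fcrla, had an implied control level below it (5.11, 7.82 and 7.23 normalized counts), so they are in the table through their knockout level, and the counts and medians of the listed markers rest partly on this selection. By DESeq2 0 had an adjusted p under 0.05, against 1.08 percent of all genes. By unadjusted p below 0.05, 6 lay higher and 0 lower, against 5.23 percent of all genes higher and 3.83 percent lower. The 3 markers of highest level, Ly6d (15697), Sdc1 (6823) and Xbp1 (6405 normalized counts), are also expressed by epithelial cells. They had log2 fold changes of -0.30 ± 0.34, 0.46 ± 0.16 and -0.23 ± 0.27 (SE) per the authors' deposited table. The other 17 had mean levels from 11.6 to 195, a median log2 fold change of 1.65, and implied levels that sum to 1182 normalized counts in the knockout and 410 in control. Among them, chosen after their values were seen, the B cell transcription factor gene Pax5 stood at 2.36 ± 1.40 and the CD20 gene Ms4a1 at 1.54 ± 1.60 per the authors' deposited table, while Ebf1, a partner of Pax5, stood at 0.24 ± 0.42. Of these 17, 5 lay higher and 0 lower by unadjusted DESeq2 p below 0.05. The 5 are Cd37 (1.65 ± 0.61), Fcrla (2.67 ± 0.97), Fcer2a (1.60 ± 0.73), Spib (1.67 ± 0.79) and Cd72 (0.90 ± 0.34) per the authors' deposited table. Cd79a, also a defining gene, was not analysed here. The part of B cell RNA in the rise of Blnk and Pik3ap1 was not tested.

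Markers of other white blood cells were examined in the same way. The 11 T and NK cell markers in the table, of 26, centred on a log2 fold change of 0.57. By DESeq2 0 of them passed the adjusted p, against 1.08 percent of all genes. By unadjusted p below 0.05, 0 of them passed, against 5.23 percent of all genes higher and 3.83 percent lower. Among these 11 markers, 2 had an implied control level under the table's lowest mean level. Their implied levels sum to 469 normalized counts in the knockout and 318 in control, with mean levels of at most 132, that of the T cell receptor gene Trbc2 (log2 fold change 0.22 ± 0.47 per the authors' deposited table). Ccl5 (1.12 ± 0.65) and Lcp2 (0.48 ± 0.53), which encodes SLP-76, the T cell relative of BLNK, followed in level per the authors' deposited table. Of 30 macrophage and myeloid markers, 29 were in the table, with a median of 0.49, and 1 rose, the neutrophil gene S100a8 (2.12 ± 0.53 at a mean level of 37.5, DESeq2 adjusted p = 0.00935) per the authors' deposited table. Of all genes, 0.808 percent were higher with an adjusted p under 0.05. By unadjusted p below 0.05, 6 of the myeloid markers lay higher and 0 lower, against 5.23 and 3.83 percent of all genes. Their implied levels sum to 12304 normalized counts in the knockout and 9107 in control, most of it Cd14 (6824, log2 fold change 0.33 ± 0.18 per the authors' deposited table), which luminal progenitor cells express too. Next in level were Lyz2 (0.97 ± 0.29) and Ctss (0.40 ± 0.33) per the authors' deposited table. Beside S100a8 and Lyz2, the genes with an unadjusted p below 0.05 were S100a9 (1.89 ± 0.57), the transcription factor gene Spi1 (1.27 ± 0.53), Clec7a (1.0 ± 0.37) and Cx3cr1 (0.78 ± 0.34), and none of these passed the adjusted p per the authors' deposited table. The macrophage genes Csf1r (0.21 ± 0.25) and C1qa (0.22 ± 0.26), chosen after their values were seen, had smaller values per the authors' deposited table. The part of these cells in the rise of the adaptors was not tested.

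The labelled cell type was matched by its markers. The 18 luminal markers ranged from 3504 to 84084 normalized counts in mean level, led by the keratin genes Krt18, Krt8 and Krt19 (log2 fold changes -0.10 ± 0.15, -0.06 ± 0.14 and -0.36 ± 0.18 per the authors' deposited table). The 10 basal and myoepithelial markers had at most 665, that of Acta2 (-0.16 ± 0.28 per the authors' deposited table). Among these the oxytocin receptor gene Oxtr fell (-1.55 ± 0.38, DESeq2 adjusted p = 0.00733 per the authors' deposited table), and Myh11, next in level, stood at 0.05 ± 0.26. The median log2 fold change was -0.03 over the luminal and -0.15 over the basal list, and 0 luminal genes passed by DESeq2, against 1.08 percent of all genes. By unadjusted DESeq2 p below 0.05, 2 luminal genes lay higher and 1 lower, against 5.23 and 3.83 percent of all genes. The targeted gene Ocln was lower in the knockout, with a log2 fold change of -1.15 ± 0.16 per the authors' deposited table. Its sign was also used in setting the direction of the comparison, so it is no separate check of that direction.

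The wider B cell receptor pathway was represented by 45 of 47 listed genes, of which Blnk and Pik3ap1, chosen for it, rose and 0 fell, against 0.808 percent higher and 0.275 percent lower of all genes. Over these 45 genes the median log2 fold change was 0.40, against -0.01 over all genes. Of the 37 genes other than the members, 0 passed by DESeq2, 30 had a positive log2 fold change (48.8 percent of all genes had), 6 lay higher and 0 lower by unadjusted p below 0.05 (5.23 and 3.83 percent of all genes), and the median was 0.28. The list is a mixture of levels. Its 11 genes with a mean level under 100 were all positive, with a median of 1.09 against 0.03 over all 5035 genes of that level. Its 17 genes at 1000 or more had a median of 0.13 against 0.01 over the 5046 genes of that level. The 9 genes between had a median of 0.42 against -0.03.

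Among single pathway genes, those of high level had fold changes near 0. The PI3K regulatory subunit gene Pik3r1, whose product BCAP binds, had a log2 fold change of 0.21 ± 0.17 (SE) at a mean level of 6180 per the authors' deposited table. The calcium channel gene Itpr3 (-0.00 ± 0.17) and the kinase gene Akt1 (0.03 ± 0.14) were next in level, and neither passed per the authors' deposited table. At the low end, and chosen after their values were seen, Btk, a kinase that docks on BLNK, stood at 1.89 ± 0.74 with a mean level of 22.4 (DESeq2 adjusted p = 0.296) per the authors' deposited table. The B cell inhibitory receptor genes Cd22 (1.80 ± 1.32, mean level 40.2) and Cd72 (0.90 ± 0.34, mean level 65.3) missed the threshold per the authors' deposited table. Of genes that act in signalling to NF-kB, Bcl10 stood at 0.36 ± 0.17 with a mean level of 2133 and Malt1 at 0.42 ± 0.21 with 925 per the authors' deposited table.

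The partners of the adaptors outside B cells were also examined. Of 23 Toll-like receptor signalling genes, upstream of BCAP in macrophages, 22 were in the table, with a median of 0.13 and 0 passing by DESeq2, against 1.08 percent of all genes. By unadjusted DESeq2 p below 0.05, 2 lay higher and 1 lower, against 5.23 and 3.83 percent of all genes. In this list Tab2 (0.05 ± 0.13) and Irak1 (0.20 ± 0.16) had the highest levels after Cd14 per the authors' deposited table. Tlr5, the flagellin receptor gene, chosen after its value was seen, stood at 0.70 ± 0.22 (DESeq2 adjusted p = 0.0776) per the authors' deposited table. The 21 PI3K subunits and phosphoinositide enzymes had a median of 0.03, with 0 passing by DESeq2, against 1.08 percent of all genes. By unadjusted DESeq2 p below 0.05, 3 lay higher and 1 lower, against 5.23 and 3.83 percent. The phosphatase gene Inppl1 (0.13 ± 0.19) had the highest level of this list per the authors' deposited table. The subunit genes Pik3r5 (1.34 ± 0.52, mean level 38.6) and Pik3r3 (-0.57 ± 0.25, mean level 343), chosen after their values were seen, pointed in opposite directions and missed the threshold per the authors' deposited table.

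Relatives of the member enzymes gave no further call. Of 16 Src, Syk and Tec family kinases, 14 were in the table, with a median of 0.52 and 0 passing by DESeq2, against 1.08 percent of all genes. By unadjusted DESeq2 p below 0.05, 6 of these kinases lay higher and 0 lower, against 5.23 and 3.83 percent of all genes. Src (-0.14 ± 0.17) and Yes1 (0.09 ± 0.14) were, with Lyn, the most abundant per the authors' deposited table. Frk (0.45 ± 0.17, mean level 902) and Fyn (0.68 ± 0.26, mean level 157), chosen after their values were seen, had unadjusted DESeq2 p-values of 0.00784 and 0.0104 per the authors' deposited table. Of 14 phospholipase C genes, 13 were in the table, with a median of -0.10 and 0 passing by DESeq2, against 1.08 percent of all genes. By unadjusted DESeq2 p below 0.05, 1 lay higher and 1 lower, against 5.23 and 3.83 percent. Plcb3 (-0.03 ± 0.15) and Plce1 (0.40 ± 0.19) were the most abundant beside Plcg2, and Plcg1, the close relative of Plcg2 chosen after its value was seen, stood at 0.19 ± 0.20 per the authors' deposited table. Of the 5 adaptor genes of the SLP and BCAP families, 3 were in the table, Blnk, Pik3ap1 and Lcp2. Lcp2, the one not chosen for its rise, stood at 0.48 ± 0.53 per the authors' deposited table.

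**Figure D4:**
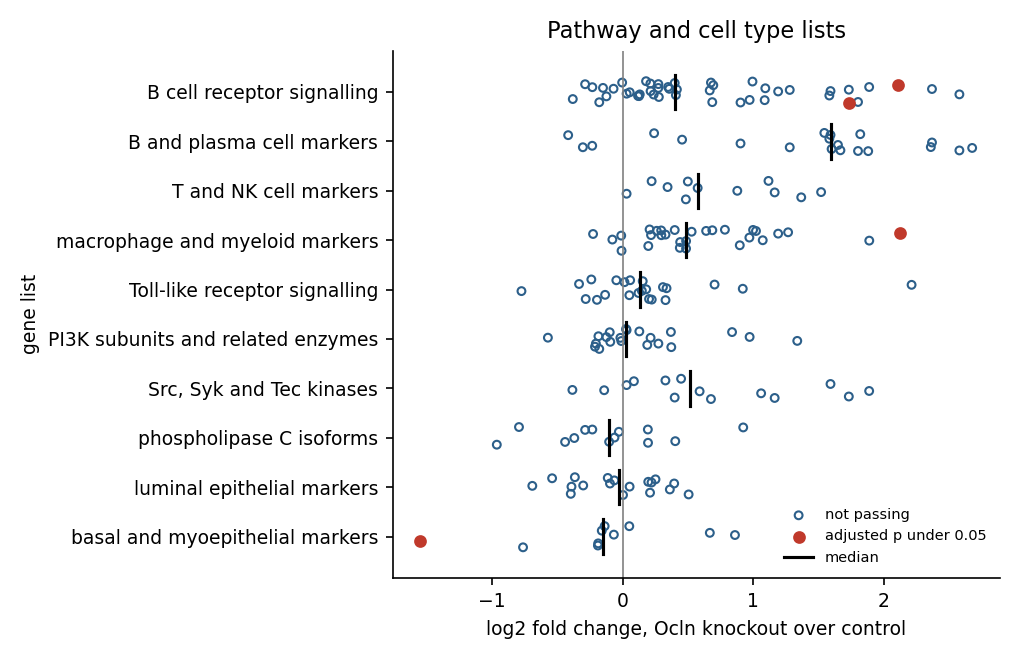
Log2 fold change of Ocln knockout over control (x axis) for the genes of 10 lists (y axis), from the authors' deposited table; each circle is a gene, filled where the adjusted p is under 0.05, and the bar is the list's median. Blnk and Pik3ap1 are the filled circles of the B cell receptor list, whose median is 0.40; the B and plasma cell markers have a median of 1.59 and no filled circle.

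No other listed gene near Blnk and Pik3ap1 on chromosome 19 passed the test. Of 69 other genes that RefSeq places within 1 Mb of either gene, 29 were in the table, and 0 had an adjusted p under 0.05 by DESeq2. Of all genes, 1.08 percent passed, so 0 of these 29 neighbours is near the share over all genes. The log2 fold changes of the neighbours ran from -0.49 to 1.71 with a median of 0.07, and 3 had an unadjusted p below 0.05. Of all genes, 5.23 percent lay higher and 3.83 percent lower at this unadjusted p. Between Blnk and Pik3ap1, RefSeq lists 6 genes, of which 1 was in the table. This is Tm9sf3, which encodes a membrane protein of the secretory pathway, with a log2 fold change of -0.04 ± 0.16 (SE) at a mean level of 12877 per the authors' deposited table. On the far side of Blnk, Zfp518a stood at 0.00 ± 0.22 and Ccnj at 0.13 ± 0.33, and beyond Pik3ap1 Lcor stood at 0.10 ± 0.21, per the authors' deposited table.

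The 3 neighbours with an unadjusted DESeq2 p below 0.05 were all positive per the authors' deposited table. They are the pseudogene Gm5827 (1.71 ± 0.80 at a mean level of only 9.06), Pdlim1, a cytoskeletal adaptor gene (0.53 ± 0.21), and Entpd1, which encodes the ectonucleotidase CD39 (0.63 ± 0.30). Gm5827, also the top of the range of the neighbours, had an implied control level below the table's lowest mean level of 8.35. It is therefore in the table through its knockout level. The remaining neighbours included Aldh18a1, Gm15801, Gm27042, Tctn3, Gm8783, Arhgap19, Frat1, Frat2, Rrp12, Pgam1, Exosc1, Zdhhc16, Mms19, Ubtd1, Hoga1, Morn4, Pi4k2a, Avpi1, Marveld1, Zfyve27 and Sfrp5, with log2 fold changes from -0.49 ± 0.30 for Arhgap19 to 0.52 ± 0.70 for Sfrp5 in the authors' deposited table. Across chromosome 19, 8 of 529 genes passed in either direction (1.51 percent), Blnk and Pik3ap1 among them. RefSeq also annotates 1 gene inside the span of Pik3ap1, which was not analysed here, and whether the authors' counting used strand is not given in the sources used here.

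**Figure D5:**
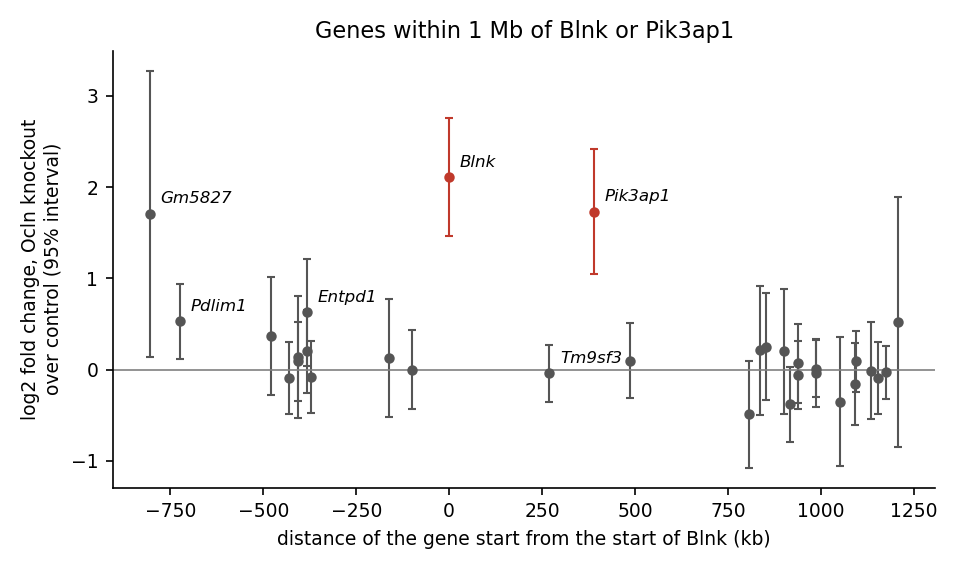
Log2 fold change of Ocln knockout over control (y axis, bars are 95 percent intervals) against the distance of each gene's start from that of Blnk in kb (x axis), for Blnk, Pik3ap1 and the 29 other listed genes within 1 Mb of either, from the authors' deposited table. Blnk at 2.11 and Pik3ap1 at 1.73, with start sites 391 kb apart, stand above Tm9sf3 between them at -0.04.

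With 1 comparison and no values per library, the likeness of other genes to the adaptors can be judged only by the size of the fold change. Among genes past an adjusted p of 0.05, those nearest to Blnk were Ifi203 (2.11 ± 0.43), Slc26a9 (2.10 ± 0.56) and S100a8 (2.12 ± 0.53) per the authors' deposited table. Nearest to Pik3ap1 were Dmkn (1.73 ± 0.28), Prickle1 (1.72 ± 0.27) and Ifi204 (1.76 ± 0.49) per the authors' deposited table.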

How the data were processed

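RNA of 6 libraries was measured, 3 Ocln knockout and 3 control. The submitters' processing notes name DESeq2 and mm10 (GRCm38); these sources do not give aligner, counter, annotation or model. The authors deposited 1 comparison with, per the file headers, a mean level (a signal in normalized counts), log2 fold change and SE, Wald score, p-value and adjusted p-value, and another value, their verdict column (Up, Down, Stable). The direction was taken from the table's name and from the negative log2 fold change of Ocln. The deposited table starts at a mean level of 8.35, and the depth of each library is unknown. It held no counts per library, so the planned edgeR fit could not be made and the authors' values are described. The Wald score equalled log2 fold change over SE to within 2.58e-07, and a Benjamini-Hochberg adjustment anew differed by at most 0.512 percent.

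Intervals are 1.96 SE on either side. Members and lists were chosen with earlier results of these data known. The transcript type for lengths was chosen after seeing the data. Positions come from RefSeq on GRCm38.p6, which has the coordinates of mm10, and strands and lengths from GENCODE M21. Neighbours are genes whose nearest edge lies within 1 Mb. Named by rule are all members, called genes and the 3 highest levels of each list, neighbours, Ocln, and the 3 called genes nearest in fold change. A few genes of the lists and neighbours are not reported here by name. Other settings were an adjusted p of 0.01, a log2 fold change of at least 1, a mean level of at least 50, scores rescaled for an inflation factor of 1.18 (division by its square root), the authors' calls, windows of 0.5 and 2 Mb, and other lengths. Scripts used Python 3.11.15, numpy 2.4.6, pandas 2.3.3 and scipy 1.17.1, and were tested on simulated data.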

Additional observations from a re-analysis of the deposited data

How the results depend on the processing

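Blnk and Pik3ap1 kept an adjusted p under 0.05, or the authors' Up call, under all 5 call settings, and no other member gained a call under any of them. Given their deposited values, settings other than the rescaled scores could not drop these 2 genes. With rescaled Wald scores their adjusted p was 4.42e-06 for Blnk and 0.00231 for Pik3ap1. Only the authors' calls and the mean level setting, with p adjusted anew, could add a member. Of 67 recomputed counts of calls, 60 stayed within 1.5 times the count reported and 7 moved. Many that stayed were counts of 0 under stricter settings, which could not rise. The moves came from the authors' calls, except that of the myeloid count at a mean level of at least 50. The tally of calls is therefore no measure of stability. Of 16 recomputed differences of implied levels, 9 stayed within the 95 percent interval and 7 moved. For every member but Blnk the longest transcript of any type is the one already used, so that setting could not move its difference. Undivided differences are in normalized counts and were set against an interval in counts per kb. The tally of differences is therefore no measure of stability. A threshold cannot move a fold change, so fold changes are not counted. With the authors' own calls, which rest on unadjusted p, the B cell receptor pathway had 3 calls of 45 genes in place of 2, Btk beside Blnk and Pik3ap1. Called too were 4 of 20 B and plasma cell markers, 3 of 29 myeloid markers, 1 of 22 Toll-like receptor genes, 1 of 21 PI3K genes, 2 of 14 kinases and 1 of 29 neighbours (Gm5827). Over all genes these calls mark 1.8 percent as Up and 0.988 percent as Down. Fcrla, Tlr9 and Gm5827, among those called, had an implied control level below the lowest mean level. With a mean level of at least 50 the myeloid count was 0, since S100a8 lies below that level. Applying the call settings to the neighbours was chosen after seeing the data. The 0.5 and 2 Mb windows held 15 and 37 genes in the table, with 0 called by DESeq2 adjusted p and 1 and 3 at an unadjusted p under 0.05. Of all genes, 1.08 percent passed the adjusted p, and by unadjusted p 5.23 percent lay higher and 3.83 percent lower. Not divided by length, the implied differences were 358 normalized counts for Blnk, 656 for Pik3ap1, 181 for Syk, -406 for Plcg2, 501 for Lyn and 97 for Ighd, so Pik3ap1 then exceeds Blnk. With the longest transcript of any type Blnk stood at 78.9 per kb. No paired analysis was possible because the table holds no values per library; leaving out libraries, another tool and a filter on counts could not be run for the same reason.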
